A study of Mus musculus with 4 samples.

Results

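The CTCF regions at the centromeric ends of the mouse autosomes were examined in 4 CTCF ChIP-seq libraries of WEHI-231, a B cell lymphoma line from a (BALB/c x NZB)F1 mouse. The libraries comprised 2 of control cells (Wehi-231-CT) and 2 of cells in which the transcription factor TFII-I was stably knocked down (Wehi-231-TFII-I KD), all precipitated with the same CTCF antibody. Both cell states share the lymphoma background of that line, and since no label states that the replicates are separate cultures, their spread may be technical. The level of TFII-I itself was not analysed here.

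Overlapping peaks of the 4 lists (1 bp or more) were joined to regions, and members were the regions on chromosomes 1 to 19 whose centre lay below position 10000000 of the build mm9. The rule used position alone and no measured signal. It selected 1246 of 28181 autosomal regions, out of 29116 regions on all chromosomes. The other 26935 autosomal regions served as the background, and where stated they were brought to the same control rank as the members. Control rank is the mean of a region's percentile ranks by peak score in both control lists.

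CTCF recognises its DNA motif through an array of zinc fingers and, together with cohesin, anchors chromatin loops and insulates neighbouring domains. Mouse chromosomes carry their centromere at the low-coordinate end, where minor and major satellite repeats form constitutive heterochromatin. These repeats are largely missing from genome assemblies, and the sequence that borders such a gap often resembles repeats elsewhere, so reads there can fit several places. TFII-I, the product of Gtf2i, is a multifunctional transcription factor, and the title of the series asks whether it directs CTCF to promoters.

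The first member calls lay near position 3000000. Whether the build holds sequence before that position was not analysed here, so this start describes positions of calls alone. The lowest coordinate of any member was 2999890 on chromosome 9, and on 17 of the 19 autosomes the first region started within 200 kb beyond position 3000000. The exceptions were chromosome 1, where the first region started at 4218295, and chromosome 14, where no list held a peak before 8581899. Other long stretches without a region interrupted the ends as well. On chromosome 7 no peak lay between 7252588 and 11743363, a stretch of 4490774 bp, and on chromosome 12 none lay between 5417656 and 7985281.

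Counted over the 7 Mb from position 3000000 to the boundary, members had a density of 9.37 regions per Mb, 0.793 times the 11.8 regions per Mb of the remaining autosomal sequence up to the last region. The direction depended on the boundary, since the ratio was 1.11 with a boundary of 5 Mb. Chromosome 19 was the exception, with 206 members or 29.4 per Mb against 13.4 per Mb along its rest, a ratio of 2.20. It supplied 16.5% of the members but 2.55% of the other regions, and without chromosome 19 the overall ratio was 0.701. The ratio was below 1 on 15 chromosomes, lowest on chromosome 9 at 0.390, chromosome 14 at 0.434 and chromosome 3 at 0.439. Chromosomes 12, 16 and 17 had ratios of 1.03, 1.06 and 1.00. The number of members per chromosome ran from 28 on chromosomes 3 and 14 over a median of 57 to 125 on chromosome 11 and 206 on chromosome 19. The densest 1 Mb window lay on chromosome 19 from 4000001 to 5000000 and held 46 regions. Of these, 19 were called in all 4 libraries, close to the share of 40.6% over all autosomal regions. The window stood at place 17 among the 2181 autosomal windows with a region. These densities describe positions of calls. Gene content and mappable length were not analysed here.

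**Figure D1:**
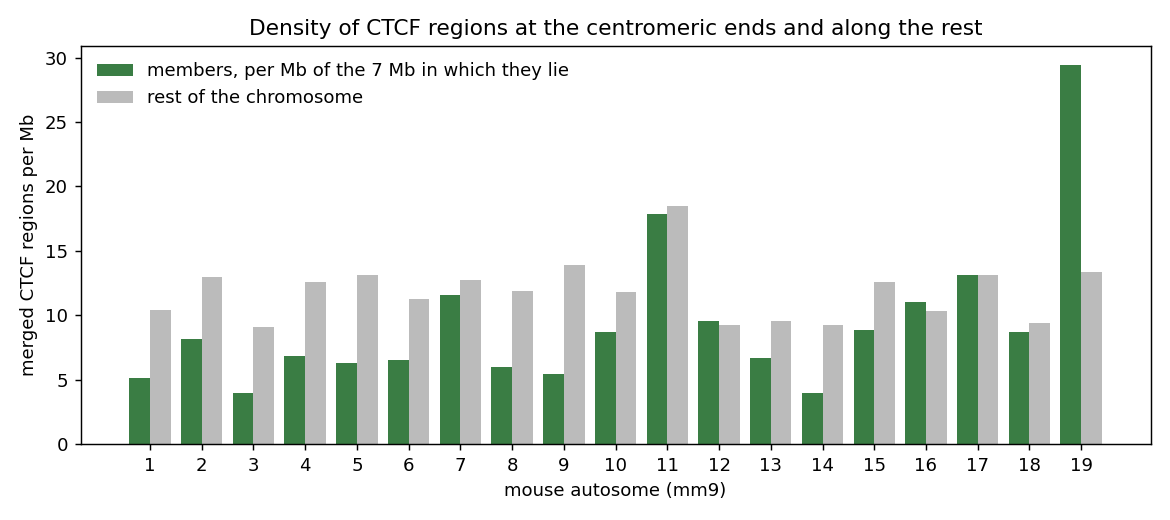
Merged CTCF regions per Mb (y axis) on each mouse autosome (x axis), for members counted from position 3000000 to the boundary and for the rest of the chromosome. Chromosome 19 stands out with 29.4 per Mb against 13.4, while 15 of 19 chromosomes have fewer regions per Mb among members than along their rest; with a boundary of 5 Mb the ratio over all autosomes is 1.11.

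Neighbouring members lay somewhat farther apart than other regions. The median distance from a member to the next region was 34096 bp, against 28357.5 bp for other autosomal regions. A next region within 2000 bp followed 86 members (6.90%) and 6.60% of the others. At the boundary itself, the highest member was chr1:9997144-9997878, with control scores of 292.67 and 240.98 and knockdown scores of 141.26 and 92.48, replicate 1 first as in all later pairs. The nearest region outside was chr3:10009246-10009857, with control scores of 121.82 and 89.27 and knockdown scores of 141.61 and 61.68. The score is the authors' value per peak, from 50 upward, and it is not on a common scale between lists.

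The members nearest the chromosome end differed in appearance from those farther in. Within the first 200 kb beyond position 3000000 lay 54 members on 17 chromosomes, with 11 on chromosome 9 and 7 each on chromosomes 11 and 17. The distance of 200 kb was chosen after the values had been seen, so these 54 are described and not tested. Of the 54, 15 were wider than 1 kb (27.8%), compared with 15 of the 1192 members farther in (1.26%) and 252 of the other autosomal regions (0.936%). Chromosome 9 alone held 8 of the 15 wide regions in the first 200 kb. A score of 500 or more in all 4 lists was reached by 8 of the 54, by 2 of the 1192 and by 19 of the 26935 other regions.

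The 4 strongest members all belonged to this outermost stretch. The part of reads that fit several places in their scores was not tested, and the sources used here give no input library. Their scores are therefore described as calls and not as strength of CTCF binding. The highest mean rank belonged to chr12:3109765-3110364, with control scores of 1952.89 and 1591.26 and knockdown scores of 2274.05 and 1698.69. It stood alone, the nearest other call being 143384 bp away. Next came chr9:2999890-3003206, with control scores of 2056.48 and 1906.53 and knockdown scores of 2072.86 and 1609.47. For chr9:3035539-3036922 the control scores were 1302.34 and 1311.88 and the knockdown scores 1852.61 and 1407.83. The fourth, chr4:3016563-3018743, had control scores of 1073.53 and 1035.81 and knockdown scores of 1212.12 and 834.07. Both knockdown scores exceeded both control scores at chr9:3035539-3036922, and at the other 3 regions the groups overlapped, in lists whose median scores were lower. All 4 regions stood above percentile 99.9 of their list in every library.

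Chromosome 9 opened with a cluster of 11 regions in 38700 bp, from 2999890 to 3038589. The cluster was named after its values had been seen. Every library had calls in it, and 8 of the 11 regions were wider than 1 kb. A call in each library was found for 8 of the 11, where the share over all autosomal regions was 40.6%. No cluster member was confined to the controls, where 25.2% of the other autosomal regions were. Among its weaker members, chr9:3021920-3023963 had control scores of 136.57 and 133.88 and knockdown scores of 161.83 and 159.44. For chr9:3025043-3028066 the control scores were 759.73 and 658.57 and the knockdown scores 932.1 and 900.64. At the inner edge, chr9:3037871-3038589 had control scores of 379.34 and 302.49 and knockdown scores of 543.32 and 449.19. At these 3 regions and at chr9:3035539-3036922 both knockdown scores exceeded both control scores, although knockdown peaks scored lower as a whole, and at the other 4 of the 8 the groups overlapped. The knockdown lists alone held chr9:3003864-3006114, with a score of 115.73 in replicate 2, and chr9:3034910-3035249, with 81.51 in replicate 1. The nearest control calls lay only 680 bp and 291 bp from these regions. The remaining region, chr9:3029987-3030508, had control scores of 174.58 and 291.73 and a score of 314.34 in knockdown replicate 1. It had no call in knockdown replicate 2. The part of reads that fit several places in the scores of this cluster was not tested.

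**Figure D2:**
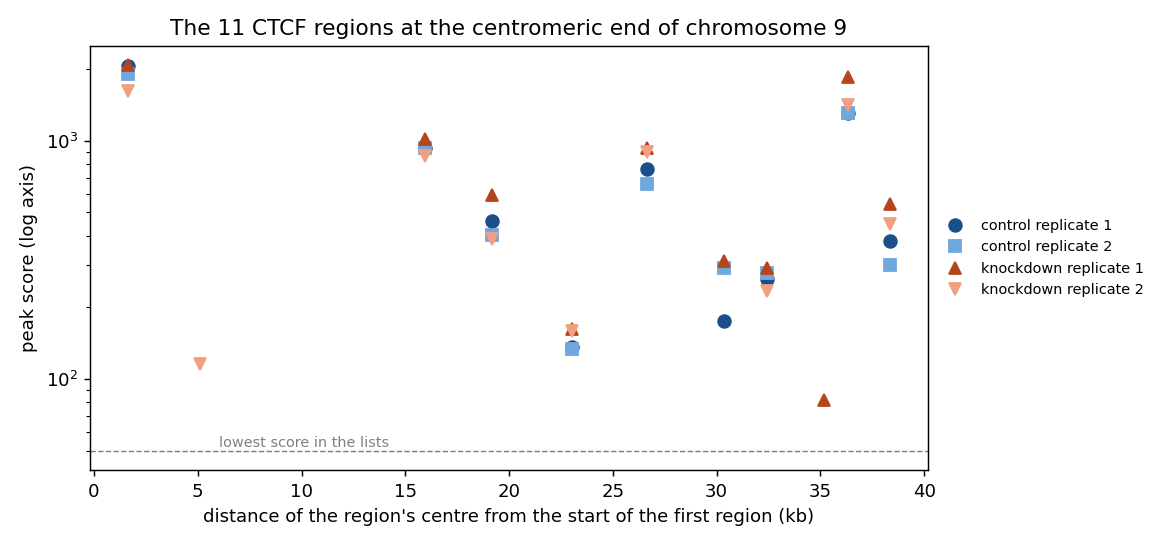
Peak score in each library (y axis, log scale) for the 11 regions at the centromeric end of chromosome 9, against the distance of the region's centre from the start of the first region in kb (x axis). Scores run from 81.51 to 2072.86, and a missing symbol means that the library had no call there, apart from symbols that cover each other.

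Chromosome 11 held the widest members. Its first region, chr11:3000002-3004967, spanned 4966 bp and had control scores of 370.16 and 362.64 and knockdown scores of 306.58 and 153.23. A region of 4970 bp, chr11:3030650-3035619, was called in knockdown replicate 2 alone, with a score of 57.58, close to the lowest score in the lists. Some opening regions were not called in every library. On chromosome 2 it was chr2:3006603-3006904, which scored 53.94 in control replicate 1 and 78.95 in knockdown replicate 1 and had no other call. On chromosome 13 it was chr13:3127343-3127880, called in control replicate 1 alone with a score of 53.54, and on chromosome 17 chr17:3006752-3007020, called in knockdown replicate 1 alone with a score of 92.3. Opening regions thus ran from peaks near the lowest score to peaks at the top of every list.

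Members made up nearly the same share of every list. The control lists held 1032 and 991 member peaks (1011.5 ± 29.0, SD, n = 2) and the knockdown lists 836 and 650 (743 ± 132, SD, n = 2). For member peaks the knockdown average came to 73.5% of that of the controls, and for all other autosomal peaks to 70.8%. As a share of autosomal peaks, members took 4.34% and 4.27% of the control lists and 4.52% and 4.38% of the knockdown lists. Both knockdown shares lay above both control shares, by 0.145 percentage points on average. The two-sided exact permutation test over libraries gave p = 0.333 for the counts and for the shares, the smallest value that 2 libraries against 2 allow.

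That order of shares did not hold in every selection of regions. Without the members in the first 200 kb the difference in share was 0.0652 percentage points and the groups overlapped (exact permutation p = 0.667), and they also overlapped without regions wider than 1 kb (0.116 points). Without knockdown replicate 1 the difference was 0.0719 points, with the order kept. In score and width, member peaks were close to other autosomal peaks of the same list. Members had median scores of 107.71 and 107.98 in the control lists, where other peaks had 111.66 and 107.675. In the knockdown lists they had 84.505 and 78.615, where other peaks had 85.56 and 79.16. Median widths of member peaks were 471.5 and 492 bp in the controls and 320.5 and 443.5 bp in the knockdown lists, against 484, 508, 328 and 446 bp for other peaks.

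Most classes of calls over the libraries held similar shares of members and of other regions. Of the 1246 members, 487 (39.1%, 95% Clopper-Pearson interval 36.4 to 41.9%) were called in all 4 libraries, where the share over all autosomal regions was 40.6%. Another 257 members (20.6%, as in other regions) had both control calls but only 1 knockdown call, which was in replicate 1 for 190 (15.2%, also 15.2% in other regions) and in replicate 2 for 67 (5.38% against 5.45%). Calls in both controls and neither knockdown library were found for 114 members (9.15% against 10.7%), and calls in a single control alone for 183 (14.7% against 14.6%). Together, 858 members had calls in both controls, or 68.9% (66.2 to 71.4%), which was below the 72.0% of other regions. The intervals cover counting error over regions only, and regions are not replicates of a condition.

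Members with calls in both controls lacked a knockdown call about as often as other regions. Among the 858 members called in both controls, the 114 without a knockdown call made up 13.3% (95% Clopper-Pearson interval 11.1 to 15.7%), and the share over all autosomal regions called in both controls was 14.8%. In other autosomal regions of equal control rank the share was 15.3%. A call in knockdown replicate 1 was found for 78.9% of the 858 members and in replicate 2 for 64.6%, against 77.0% and 63.6% in other regions of equal control rank. Splitting these regions evenly by control rank into weak, middle and strong groups, 88 of 289 members in the weak group had no knockdown call (30.4%), 23 of 292 in the middle group (7.88%) and 3 of 277 in the strong group (1.08%). The other autosomal regions had 33.7%, 9.49% and 1.39% in the same groups. Members of the weak group had median control scores of 76.71 and 74.32, where the lowest score of the lists is 50. The knockdown lists are also shorter, and the part of score, list length or binding in this order was not tested.

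**Figure D3:**
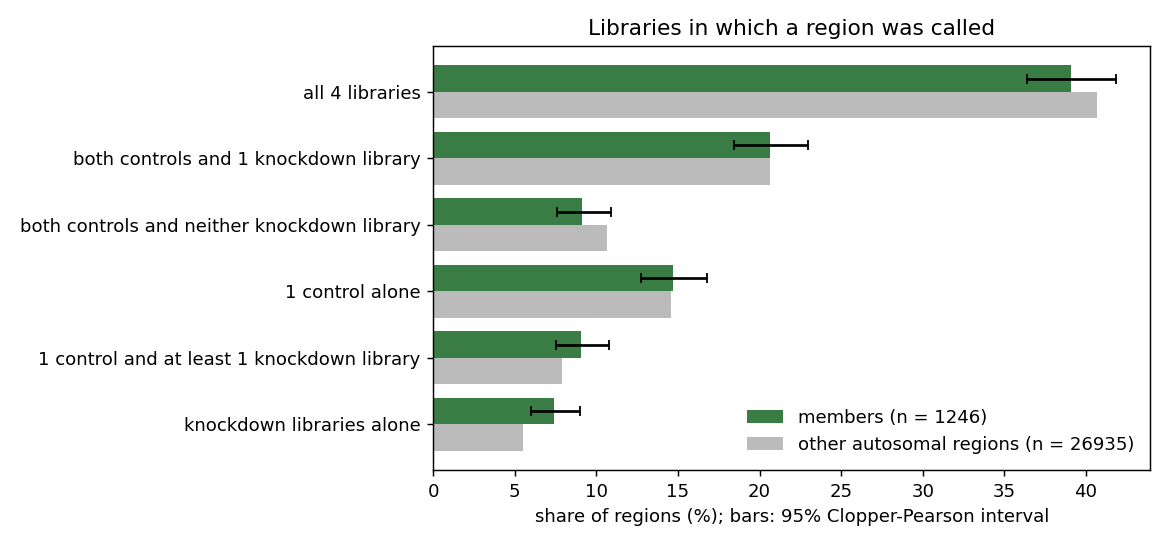
Share of regions in percent (x axis) by the libraries with a call, for the 1246 members (with 95% Clopper-Pearson intervals) and the 26935 other autosomal regions. For calls in knockdown libraries alone, members have 7.38% and other regions 5.51%. The intervals cover counting error over regions only and are no test, since regions are not replicates of a condition.

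The strongest of the 114 members without a knockdown call were moderate control peaks. First was chr19:5094251-5094752, with control scores of 195.21 and 162.11 and a distance of 7388 bp to the nearest knockdown call. Of 14 other regions within 100 kb of it, 3 were called in all 4 libraries, where the share over all autosomal regions was 40.6%. For chr8:3718399-3719067 the control scores were 163.89 and 137.82, and the distance to the nearest knockdown call was 12339 bp. The other 2 lay on chromosome 19, chr19:6417957-6418622 with control scores of 120.28 and 176.65 and chr19:6663227-6663905 with 118.19 and 171.65. All 4 were above the median control scores of the whole class, which were 79.12 and 77.715. By chromosome, 27 of the 114 lay on chromosome 19, where 18.2% (12.4 to 25.4%) of the 148 members called in both controls had no knockdown call against 12.2% of the regions along its rest. Chromosome 3 had none among 20 members, which allows a share of up to 15.0% by the limit of 3 counts and up to 16.8% by the Clopper-Pearson interval. The share was below that of the rest of the chromosome on 11 autosomes and above it on 8, and leaving out any single chromosome kept it between 12.3% and 13.8%.

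Calls in knockdown libraries alone had a somewhat higher share among members than among other regions, mostly through replicate 1. They numbered 92 of 1246 members (7.38%, 95% Clopper-Pearson interval 5.99 to 8.98%), where 5.59% of all autosomal regions had such calls. Most were single calls, with 56 members in knockdown replicate 1 alone (4.49%, against 3.10% of the other regions) and 28 in replicate 2 alone (2.25% against 1.98%). Control replicate 1 alone also took more members (8.83%) than other regions (7.88%), and control replicate 2 alone took fewer (5.86% against 6.68%). A single library held the call in 21.4% of members and 19.6% of other regions. No test of these differences over regions was made, since neighbouring regions are not independent.

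The share was higher in the outermost stretch, although 80 of the 92 lay farther in. Of the 54 members in the first 200 kb, 12 (22.2%, 12.0 to 35.6%) were called in knockdown libraries alone, 9 in replicate 1 and 3 in replicate 2, with scores from 50.72 over a median of 68.745 to 186.52. The highest belonged to chr11:3097246-3100228, a region of 2983 bp with its only call in replicate 1. Among the 1192 members farther in, the share was 6.71% (5.36 to 8.28%), against 5.51% of the other autosomal regions. These 1192 are what remains after a stretch chosen with its values seen was taken out, so their share is described and not tested. In the same outermost stretch 7 of 54 members were called in controls alone (13.0%), against 24.3% of members farther in. Of 29 members called in both controls there, 1 had no knockdown call (3.45%, 0.0873 to 17.8%), against 9.80% in other regions of equal control rank. The width and high scores of this stretch moved with these shares, and their part in them was not tested.

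**Figure D4:**
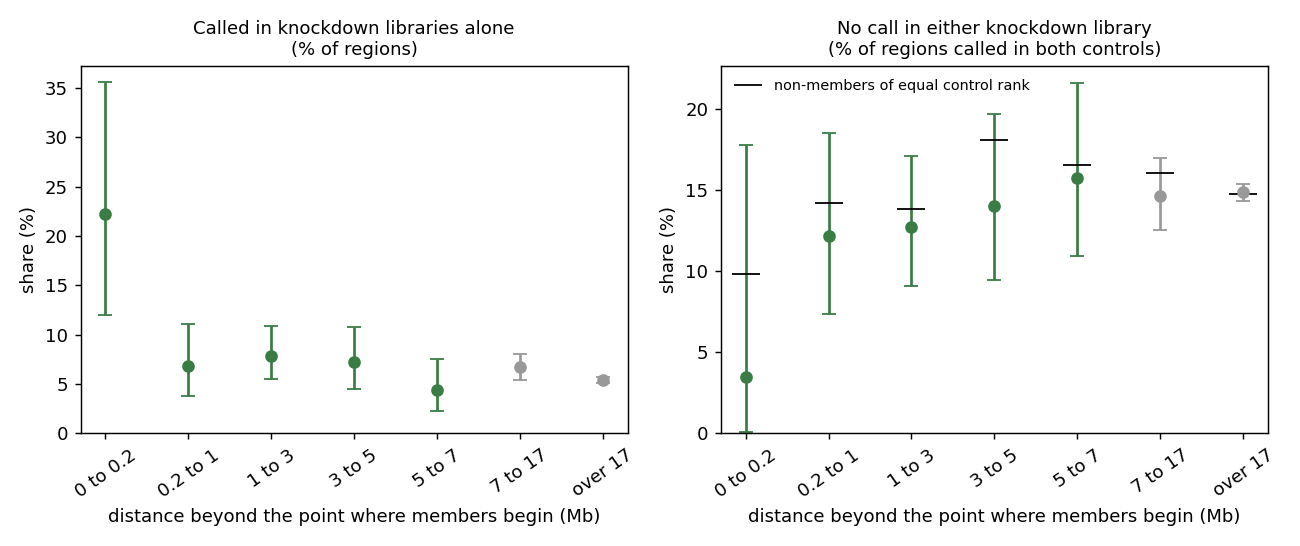
Share of regions in percent (y axes) by distance beyond position 3000000 in Mb (x axes), with 95% Clopper-Pearson intervals; members are green and other regions grey. The left panel shows calls in knockdown libraries alone, with 22.2% in the first 0.2 Mb and 4.38 to 7.86% in the later member steps. The right panel shows control regions without a knockdown call, beside the share of non-members of equal control rank.

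Only 8 members were called in both knockdown libraries and neither control (0.642%, 0.278 to 1.26%), where the share over all autosomal regions was 0.436%. They lay on 7 chromosomes, and their scores ran from 52.43 to 80.46. Highest in mean rank among them was chr7:5239718-5240176, with knockdown scores of 59.82 and 80.46 and a distance of 161985 bp to the nearest control call. For chr10:8732620-8732939 the knockdown scores were 70.91 and 61.79, and for chr11:5890875-5891322 they were 61.33 and 68.68. None of the 8 lay in the first 200 kb, but that stretch held only 54 of the 1246 members, so 8 regions are too few to tell.

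The mean rank of the members called in every library changed little. The 11448 autosomal regions called in all 4 libraries were ranked by score within each list, from percentile 0 for the weakest to 100 for the strongest. The 487 members had mean ranks of 49.4 and 48.6 in the control lists and of 51.9 and 50.9 in the knockdown lists, so both knockdown means lay above both control means. The exact permutation test over libraries gave p = 0.333, the smallest possible. Against other regions of equal control rank, the members stood 1.31 ± 0.843 percentile points higher in the knockdown libraries (SE over 487 regions), 1.98 points in replicate 1 and 0.638 in replicate 2. It was 0.124 points without knockdown replicate 1, 0.665 without control replicate 2 and 2.15 without chromosome 19. Without the highest step of control rank it was 1.11 ± 0.903 points over 450 members. In both knockdown libraries 106 members (21.8%) ranked above both controls and 77 (15.8%) below both, where 18.9% and 17.7% of all autosomal regions did so.

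The outermost members were partly at the top of the rank scale, which leaves little room for a rise. Of the 23 members of the first 200 kb that were called in all 4 libraries, 12 belonged to the highest of the 20 steps of control rank. These 12 had mean control ranks of 99.1 and 98.9 and mean knockdown ranks of 99.7 and 99.1, a difference of 0.424 points before comparison with other regions. Other regions of that step fell by 7.42 points from lower control ranks of 97.1 and 97.0, so a comparison with them gave the 12 members a difference of 7.84 points. At chr12:3109765-3110364, for instance, the rank went from 99.952 in both controls to 99.961 in both knockdown libraries. The other 11 outermost members stood 11.9 ± 6.11 points higher than regions of equal control rank (SE over 11 regions), 17.4 in knockdown replicate 1 and 6.49 in replicate 2. For all 23 the difference was 9.80 ± 2.89 points with 20 steps, 7.72 ± 3.05 with 100 steps and 7.18 without the comparison. In the chromosome 9 cluster, named after its values had been seen, 6 of 8 regions ranked above both controls in both knockdown libraries. Over all autosomal regions called in all 4 libraries 18.9% did so, and 8.60% of the other regions in the highest step. Some of these rises were tiny, as at chr9:3035539-3036922, from 99.917 in both controls to 99.926 and 99.934. The mean difference of all 8 was 7.26 points without the comparison. This mean does not describe a shift shared by the cluster. The largest rise was at chr9:3021920-3023963, from control ranks of 42.5 and 44.7 to knockdown ranks of 88.7 and 92.9. Next came chr9:3031741-3032925, from 91.7 and 94.2 to 98.4 in both. The strongest region, chr9:2999890-3003206, had a rank of 99.97 in both controls and ranked slightly lower in both knockdown libraries. The part of reads that fit several places in the ranks of the outermost members was not tested.

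For the 464 members farther in, the difference was 0.888 ± 0.869 points (SE over 464 regions). That SE covers spread between regions only, and regions are not replicates of a condition, so it cannot decide on an effect of the knockdown. The 464 are what remains after a stretch chosen with its values seen was taken out, so their difference is described and not tested. Between chromosomes the sign varied, with means above 0 on 14 autosomes and below 0 on 5. Both knockdown libraries were above 0 on 9 autosomes and below 0 on 2, and on 8 they had opposite signs. The means ran from 8.38 ± 4.82 points on chromosome 3 (16 regions, 17.4 and -0.685 in replicates 1 and 2) to -2.94 ± 2.08 points on chromosome 19 (77 regions).

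**Figure D5:**
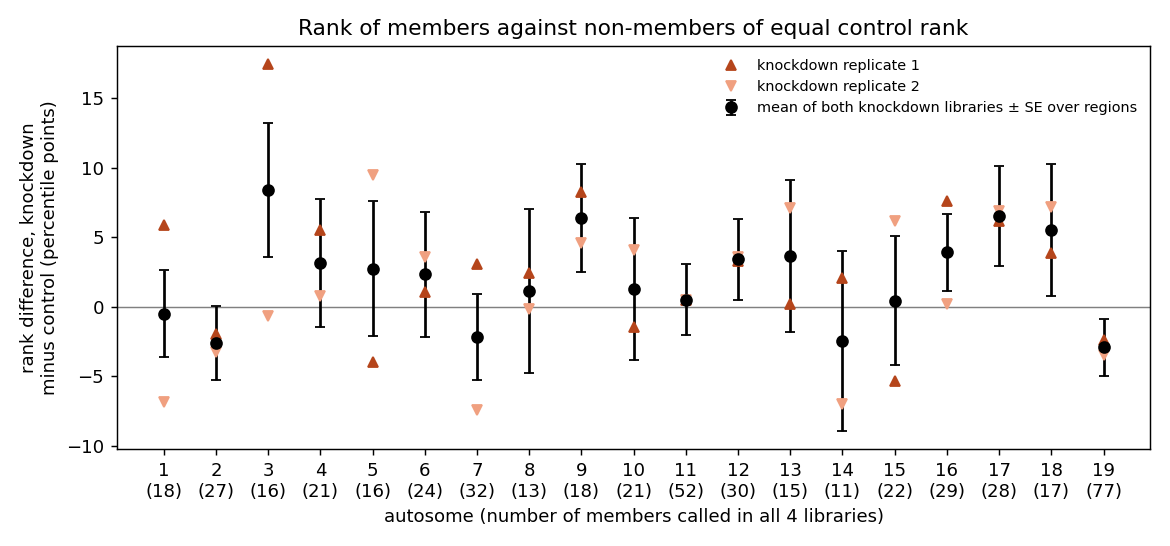
Rank difference of members called in all 4 libraries, knockdown minus control, in percentile points against non-members of equal control rank (y axis), by autosome (x axis). Circles are means of both knockdown libraries with the SE over regions and triangles the 2 libraries, which differ in sign on 8 of 19 chromosomes.

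Large shifts of single members went both ways. The largest rise was at chr15:3907889-3908537, with control scores of 163.14 and 100.48 and knockdown scores of 240.18 and 176.64, or 52.3 points at equal control rank. At chr17:4626123-4626680 the control scores were 142.96 and 68.36 and the knockdown scores 167.37 and 132.79, a rise of 50.3 points. At chr3:4743494-4744081 the control scores were 152.27 and 123.66 and the knockdown scores 237.97 and 183, a rise of 48.0 points. This last region was isolated, with the nearest other control call 991399 bp away. The fourth, chr16:3350852-3351345, had control scores of 130.58 and 160.39 and knockdown scores of 156.79 and 195.2. Scores of the chromosome 15 and chromosome 3 regions were higher in both knockdown libraries than in both controls, against the general decline of the scores, while those of the chromosome 17 and chromosome 16 regions overlapped between groups.

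In the opposite direction, chr14:9440996-9441518 had control scores of 142.75 and 289.29 and knockdown scores of 54.16 and 60.5, a difference of -49.1 points at equal control rank. Its control scores differed widely, and the difference was -39.8 points without control replicate 2 and -62.8 without control replicate 1. At chr4:3347135-3347692 the control scores were 263.48 and 212.37 and the knockdown scores 67.26 and 71.72, a difference of -45.4 points. At chr19:7182845-7183574 the control scores were 119.98 and 131.27 and the knockdown scores 55.46 and 50.57. The fourth, chr10:4745910-4746534, had control scores of 170.46 and 175.78 and knockdown scores of 64.14 and 62.44. Across these 4 regions the knockdown scores ran from 50.57 to 71.72, near the lowest score of 50, and the control scores from 119.98 upward. The groups did not overlap, but the regions had been picked for knockdown ranks below both control ranks. This separation is therefore no independent result. These regions were the extremes of 487, and no test was made for single regions, where the exact permutation over 4 libraries cannot go below p = 0.333.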

How the data were processed

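Deposited CTCF peak lists of 2 control and 2 TFII-I knockdown libraries of WEHI-231 were used, with 24467, 23873, 19076 and 15309 peaks, controls first. Each list gives a position and the authors' score per peak. BWA, HOMER and mm9 appear in the submitters' processing notes, and the peak names carry the word MACS. Parameters, versions, any input library and sequencing depth: not given in the sources used here. A shallower library would hold fewer and lower peaks. Scores (50 to 3100) served for ranks within a list and as descriptive values.

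Members, lists and tests were chosen with earlier results of these data known, the 200 kb stretch and the score of 500 after the values had been seen. A region took the highest score of each library. Background shares were standardised to the members over 20 steps of control rank. Named regions were the 4 strongest members, the strongest without knockdown (4) or control (3) calls, the 4 largest rises and falls with both knockdown ranks on one side of both control ranks, the 3 widest, those at the boundary and the densest 1 Mb window. The chromosome 9 cluster, the first regions of chromosomes 2, 13 and 17 and chr11:3097246-3100228 were named after their values had been seen. Groups were compared by means and SD of 2 libraries and two-sided exact permutation tests. Alternatives were boundaries of 5 and 20 Mb, a score of at least 100, lists of equal length, merging within 500 bp, leaving out regions over 1 kb or each library, and a replicate block. Steps were tested on simulated data. Software was matplotlib 3.10.9, scipy 1.17.1, pandas 2.3.3 and numpy 2.4.6 under Python 3.11.15. No mm9 genome or annotation was used here, so regions carry no gene names or sequences.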

Additional observations from a re-analysis of the deposited data

How the results depend on the processing

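The settings without the first 200 kb, without chromosome 19, without the highest step of control rank and with 100 steps, and those for density and score, were chosen after seeing the data. The knockdown minus control difference in member peaks (-268.5) became 36 with lists of equal length, which fixes the total by construction. The difference in share of autosomal peaks and the rank difference kept their direction in every setting. The share of control members without a knockdown call was 10.2% with a boundary of 5 Mb (13.2% in other regions of equal control rank), 38.3% with a score of at least 100 (39.1%), 7.29% at equal list length (7.32%) and 35.6% with the replicate block (35.7%), and leaving out 1 library gave 18.9% to 35.4%. Apart from the boundary of 5 Mb, which changes the members alone, these settings require fewer calls or use fewer peaks by construction. The members' density ratio was 1.11 with a boundary of 5 Mb, 0.694 with 20 Mb, 0.749 with a score of at least 100, 0.759 without the first 200 kb and 0.701 without chromosome 19. The mean difference in median score between member and other peaks, -1.31, was smaller than its SD over libraries of 1.85. It was 2.78 with a boundary of 5 Mb and 2.05 with a score of at least 100, and the cause was not tested. In the replicate block the rank difference was 1.20 points and the difference in share 0.145 points, both with an exact sign-flip p of 0.5, the smallest that 2 pairs allow. The replicate differences in rank were nearly uncorrelated between control and knockdown (correlation 0.0120 over 11448 regions). The labels do not state whether libraries of the same number were prepared together, and this value cannot show it.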
